A study of Saccharomyces cerevisiae S288C with 18 samples.

Results

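Cultures of Saccharomyces cerevisiae S288C that had received amphotericin B and lactoferrin together (AMB-LF) were compared with their matched untreated control by RNA-seq. The comparison was chosen by the sample labels and rests on 6 of the 18 libraries of the study, 3 biological replicates of AMB-LF and 3 of the control. AMB is a polyene antifungal that binds the membrane sterol ergosterol, and LF is an iron-binding glycoprotein of milk, here from cattle. AMB-LF cultures held 0.03 µg/mL AMB and 2 µg/mL LF for 50 minutes in RPMI medium, and the control for AMB-LF held neither drug for 50 minutes. The treated cells were taken at partial growth inhibition, and all groups were of the one strain with no engineered allele named in the labels. No sample of this comparison received AMB or LF singly, so the part of each drug cannot be told apart in it.

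The study has a second untreated group, labelled as the control for AMB alone (3 libraries, 60 minutes). The sources differ on which untreated group is which. The sample labels give each control the time of its treatment, as do the study's methods, whereas the study's own scaling plot of the libraries gives the 2 untreated groups the opposite names and the deposited growth text gives the 2 control times the other way round. GEO's labels were followed here, and beside most results the value of the same AMB-LF libraries against the control for AMB is given. These 2 comparisons share the AMB-LF libraries and are not independent of each other. Lane is the other limit, since all 3 controls and AMB-LF replicate 1 were sequenced in lane 1 and AMB-LF replicates 2 and 3 in lane 2. The lane term of the fit therefore draws on the AMB libraries and the control for AMB as well, and AMB-LF replicate 1 is the only AMB-LF library that shares a lane with its control.

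In yeast, preferred nitrogen sources such as glutamine keep genes for the use of poorer sources off, which is known as nitrogen catabolite repression. When they run short, the GATA-type activators Gln3 and Gat1 enter the nucleus and switch on permeases and breakdown enzymes. Shortage of amino acids raises translation of the activator Gcn4, which drives most amino acid pathways and is known as general amino acid control, while genes for ribosome assembly follow the growth rate and chaperones and redox enzymes follow stress.

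The 6 libraries held between 7279362 and 9696467 counts on genes. Of the 6692 genes in the table, 5456 reached a CPM (counts scaled to a common library total) of 7 in at least 6 of the 12 HiSeq libraries and were tested with edgeR's quasi-likelihood test. A gene is called increased or decreased here where its Benjamini-Hochberg adjusted p was under 0.05. Values per library are CPM scaled with TMM factors, log2 changes are AMB-LF against the named control, and in such bulk samples fewer cells that express a gene and less of its RNA per cell cannot be told apart. In the 6 libraries the a-type mating genes STE2 (630 to 1030 CPM), MFA1 (304 to 422 CPM) and MFA2 (442 to 513 CPM) were high, with STE6 at 252 to 295 CPM, BAR1 at 128 to 176 CPM and AGA2 at 74.7 to 89.2 CPM. The alpha-type genes were lower but were not all near 0, with MF(ALPHA)1 at 0.138 to 0.809 CPM, STE3 at 5.95 to 11.2 CPM, MF(ALPHA)2 at 7.63 to 10.5 CPM and SAG1 at 58.1 to 70.6 CPM. The labels give the strain but no mating type, while the reference strain of this name is of the alpha type.

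AMB-LF had 14.1% of the genes tested called increased against its matched control and 15.1% called decreased. The same libraries against the control for AMB gave 16.5% increased and 16.0% decreased. Scaled to library size alone, with no TMM factors, 559 were increased and 1294 decreased, beside 770 and 825. Of the 770 genes increased against the matched control, 394 were also increased against the control for AMB and 42 were decreased there. Of the 825 decreased, 286 were also decreased there and 9 were increased. Without AMB-LF replicate 1 the calls fell to 299 increased and 171 decreased, and with lane 1 alone, which sets AMB-LF replicate 1 against the 3 controls, they were 297 and 190. With lane 1 alone AMB-LF is a single library that is assumed to vary like the other groups of that lane, and without AMB-LF replicate 1 the lane effect rests on the AMB libraries and the control for AMB. Leaving out replicate 1 of the control for AMB-LF lowered the decreased genes to 549. The 54 gene lists below hold 1526 genes, of which 1499 passed the filter on low counts and are the ones counted, and the median log2 change over all genes tested was -0.01 against either untreated group. Counts of called genes in any list stand beside the shares of all genes tested given above. Those for fewer libraries stand beside the calls over all genes with the same libraries. Without AMB-LF replicate 1 these were 299 increased and 171 decreased of 5448 genes tested, so smaller list counts there are partly shared by all genes. Where a list lies near those shares, its counts are not read as a result about its genes.

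**Figure D1:**
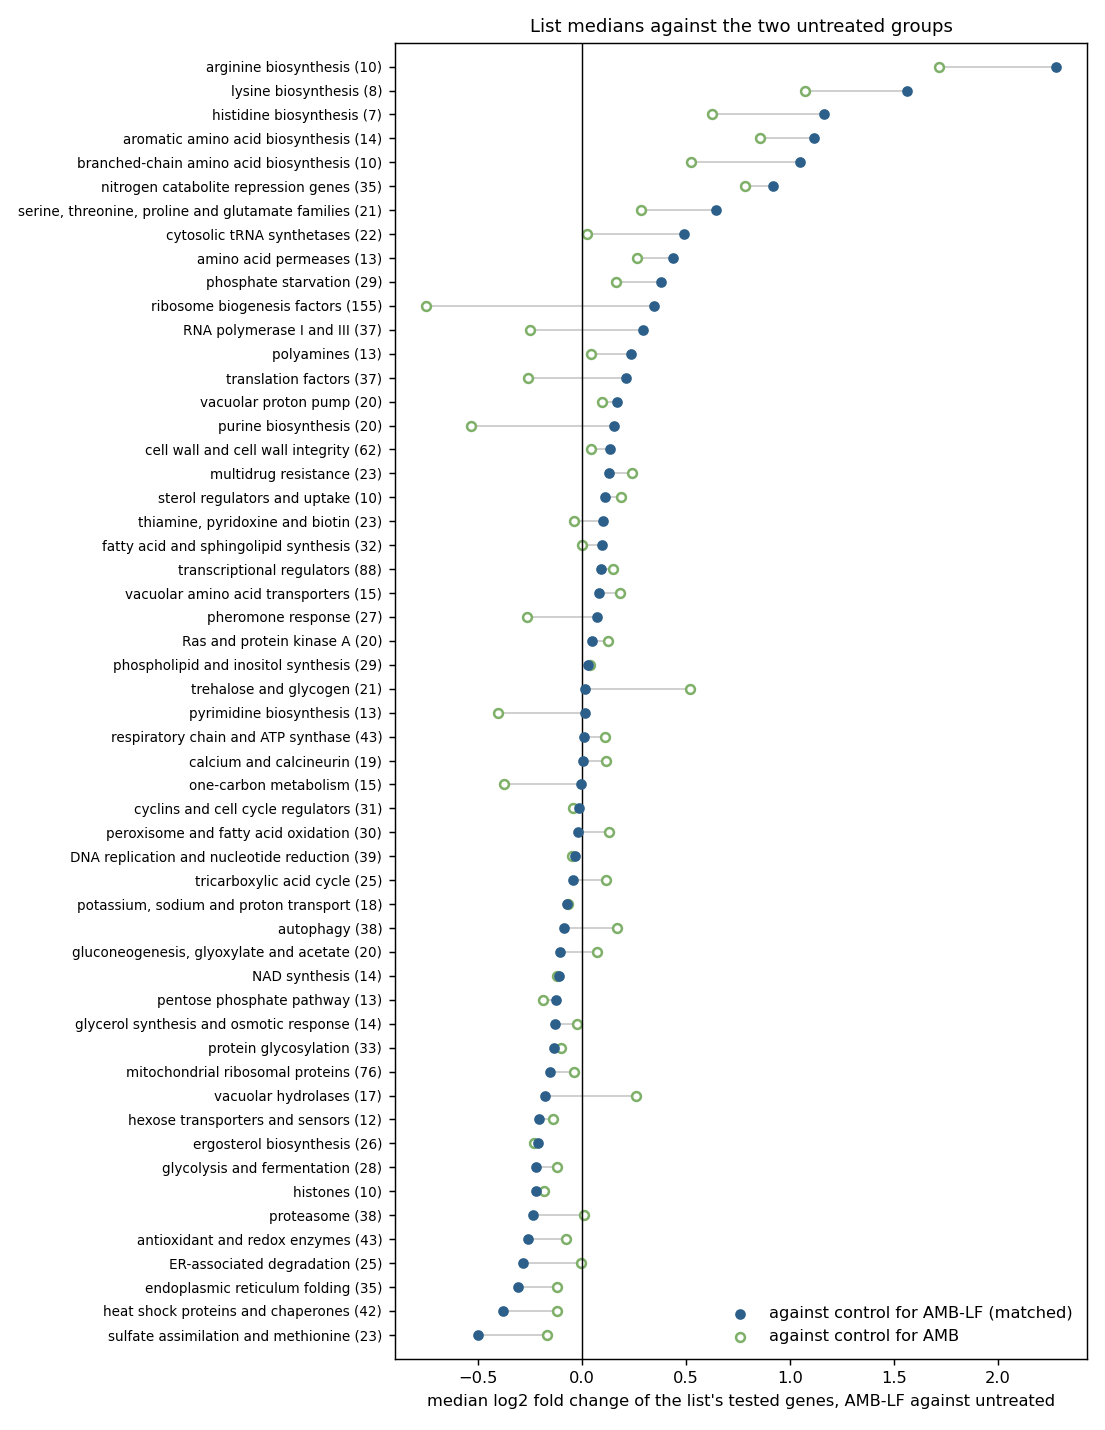
Median log2 change of each of 54 gene lists, AMB-LF against the matched control (filled) and against the control for AMB (open), with the number of tested genes in parentheses. Nitrogen catabolite repression and the synthesis of arginine, lysine, histidine and aromatic amino acids lie to the right against both untreated groups, sulfate assimilation and methionine lie to the left, and ribosome biogenesis moves from 0.35 to -0.75.

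Genes for the uptake and use of poor nitrogen sources were mostly increased, and MEP2 and GAP1 among them had the largest log2 changes of the increased genes whose groups did not overlap. Of the 35 tested genes under nitrogen catabolite repression, 23 were increased and 0 decreased, with a median log2 change of 0.92, beside 14.1% increased among all genes tested. Against the control for AMB, 27 were increased and 0 decreased, with a median of 0.78. There were 20 increased without AMB-LF replicate 1. The summed CPM of the list was 26920.0, 19541 and 22873 in AMB-LF, 6215, 6115 and 6838 in the matched control and 7867, 7190.5 and 8666 in the control for AMB.

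Among the permeases, MEP2, the high-affinity ammonium transporter, was at 3579.8, 1653 and 2355 CPM in AMB-LF and at 82.7, 94.6 and 115 CPM in the control. AMB-LF replicate 1 was the highest and the groups lay far apart. The log2 change was 4.72 ± 0.32 (SE, adjusted p = 1.7e-06), a rise of 26.4-fold. The other ammonium transporters rose less, MEP1 by 1.73 and MEP3 by 1.36. GAP1, the general amino acid permease, was at 4565, 2743 and 3272 CPM against 282, 302 and 386 CPM, a log2 change of 3.48 ± 0.25 (SE, adjusted p = 2.2e-06). For these and the other genes named, the values are in the order of the replicates. DUR3, which takes up urea and polyamines, went from 36.8, 39.9 and 39.1 CPM to 475, 283 and 326 CPM. Replicate 1 of AMB-LF was again the highest for both, and neither gene overlapped with its control. Further permeases increased were AGP1 for broad amino acid uptake (log2 change 2.49), CAN1 for arginine (2.28), PUT4 for proline (2.12), the oligopeptide transporter OPT2 (1.68) and the allantoate permease DAL5 (0.62). All of these were also increased against the control for AMB, with values from 0.70 for MEP3 to 3.88 for MEP2. DAL5 alone among them lost its call without AMB-LF replicate 1 (0.46, adjusted p = 0.13).

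Enzymes of nitrogen breakdown rose unevenly. DUR12, which encodes urea amidolyase, was at 2194, 1539 and 1621 CPM against 171, 170.3 and 281 CPM (log2 change 3.16 ± 0.25 SE, adjusted p = 4.9e-06). DAL3, the ureidoglycolate lyase of allantoin breakdown, was at 274, 142 and 169 CPM against 26.9, 41.8 and 35.6 CPM (log2 change 2.60 ± 0.27 SE, adjusted p = 3.7e-05). In both, every AMB-LF library lay above every control. Other genes of allantoin use rose less or were not called, with DAL1 at 1.67 and DAL7 at 0.83 increased (DAL7 0.61, adjusted p = 0.082 without AMB-LF replicate 1), and DAL2 (0.21, adjusted p = 0.33) and DAL4 (0.35, adjusted p = 0.23) not called. In arginine and proline breakdown the first steps were increased and the second were not called. CAR1, arginase, had a log2 change of 2.09 ± 0.18 (SE, adjusted p = 7.5e-06), while CAR2, the transaminase that follows it, was at -0.17 ± 0.19 (SE, adjusted p = 0.53). PUT1, proline oxidase, was increased by 1.31 ± 0.23 (SE, adjusted p = 0.0016) but was not called against the control for AMB (0.37), and PUT2 behind it was at 0.10 ± 0.09 (SE, adjusted p = 0.42). The GABA genes UGA1 (-0.27), UGA2 (0.09) and UGA4 (0.59) did not pass the test, although UGA3, which encodes their activator, went from 52.8, 50.7 and 55.2 CPM to 217, 207 and 215 CPM (log2 change 1.96 ± 0.09 SE, adjusted p = 1.6e-07).

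Regulators of nitrogen use were increased as well. GAT1, a GATA activator, was at 386, 281 and 342 CPM in AMB-LF against 63.4, 77.6 and 68.5 CPM, a log2 change of 2.31 ± 0.14 (SE, adjusted p = 9.0e-07), and 2.01 ± 0.13 (SE, adjusted p = 1.8e-06) against the control for AMB. GLN3, the other activator, was at 98.5, 99.2 and 96.9 CPM against 62.8, 61.3 and 64.9 CPM (log2 change 0.64 ± 0.06 SE, adjusted p = 1.2e-05). The GATA repressor GZF3 also rose (0.79), as did URE2, the cytoplasmic inhibitor of Gln3 (0.34), which missed the threshold with lane 1 alone (0.30, adjusted p = 0.14). DAL80, the other GATA repressor, did not pass the filter on low counts.

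The 300 bases upstream of the start codon were searched for GATAAG, the core bound by GATA factors, in the R64 genome of RefSeq. On either strand, with overlapping matches counted, the motif was present in 19 of 35 genes of the list (54.3%) against 14.7% of all 6001 promoters. It was in 60.9% of the 23 increased genes and in 41.7% of the 12 that were not called. Of the other lists, arginine synthesis (60.0%), vacuolar amino acid transporters (53.3%) and vacuolar hydrolases (52.9%) held it about as often. The last of these had 6 genes decreased and 2 increased, so the motif was not particular to increased lists. Over all called genes the motif was in 21.2% of the increased and 12.4% of the decreased. The windows of 30 bases below show it in capitals, as GATAAG or as its reverse complement CTTATC, upstream of 4 of the genes with large increases. They are read 5′ to 3′ on the coding strand, at chrXIV:357208-357237 (plus strand) for MEP2, chrXI:514809-514838 (plus) for GAP1, chrIX:415767-415796 (minus) for DAL3 and chrVI:95735-95764 (plus) for GAT1. A match is a description, not a site or a cause.
MEP2: aagaccctgtgcCTTATCaatgaagtattc
GAP1: taaattaaacatGATAAGcgcatagttggg
DAL3: gacaaagtgccaGATAAGATAAGatggatt
GAT1: aaGATAAGATAAGATAAGataacaaatcat
MEP2 held 1 match in its promoter, GAP1 2, GAT1 4 and DAL3 5.

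**Figure D2:**
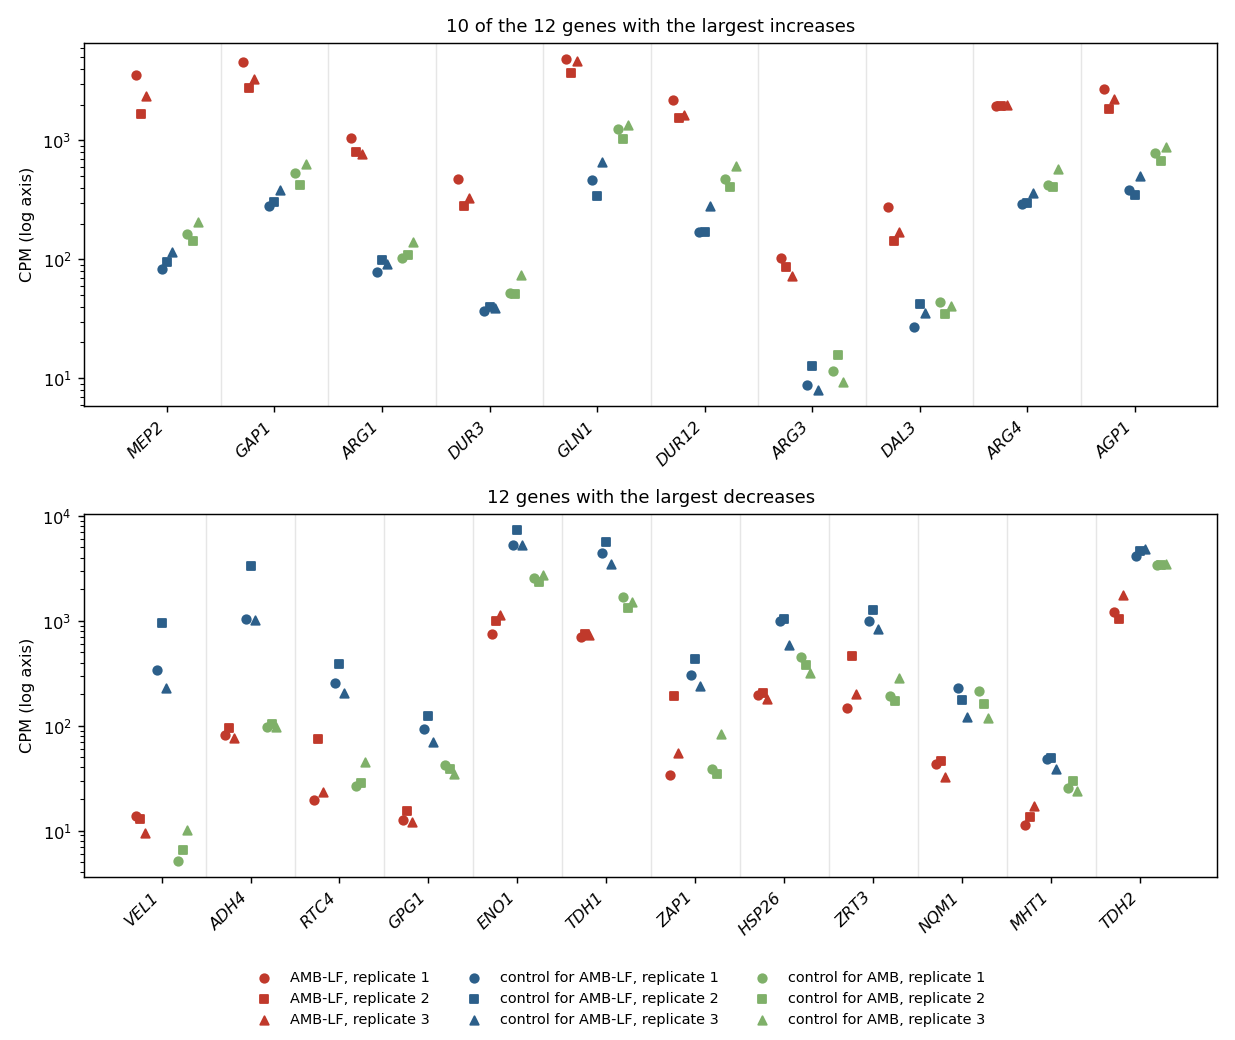
CPM on a log axis in each AMB-LF, control for AMB-LF and control for AMB library for called genes whose matched groups do not overlap, 10 of the 12 that rose most and the 12 that fell most. The 10 increased genes stand above both untreated groups, whereas VEL1, ADH4, RTC4, ZAP1 and ZRT3 stand below the matched control but near the control for AMB.

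Ammonium assimilation and glutamate synthesis also rose. GLN1, glutamine synthetase, was at 4817, 3724 and 4680.0 CPM in AMB-LF and 460.3, 338 and 661 CPM in the control, with no overlap. Its log2 change was 3.18 ± 0.25 (SE, adjusted p = 4.6e-06). Against the control for AMB, itself higher at 1244, 1022 and 1343 CPM, it was 1.87 ± 0.22 (SE, adjusted p = 0.00012). GDH1, the anabolic glutamate dehydrogenase, had a log2 change of 1.50 ± 0.20 (SE, adjusted p = 0.00026), and GLT1, glutamate synthase, of 1.26 ± 0.15 (SE, adjusted p = 9.5e-05). The catabolic glutamate dehydrogenase GDH2 did not pass the test (0.20, adjusted p = 0.063). Among enzymes that supply carbon skeletons, ACO1, the aconitase of the tricarboxylic acid cycle, was decreased, with a log2 change of -0.92 ± 0.13 (SE, adjusted p = 0.00043). PYC2, a pyruvate carboxylase, was increased (1.52) and its paralog PYC1 decreased (-0.56). The increases of GLN1, GDH1 (0.66), GLT1 and PYC2 (1.04) also passed the test against the control for AMB.

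Genes for the synthesis of most amino acids were increased. All 10 genes of arginine synthesis were increased, with a median log2 change of 2.28 and of 1.72 against the control for AMB. All 10 were also increased without AMB-LF replicate 1. The summed CPM of the list was 6375, 6071 and 5828 in AMB-LF, 1000.2, 1027 and 1178 in the matched control and 1483, 1484 and 1799.5 in the control for AMB. ARG1, argininosuccinate synthetase, was at 1052, 805 and 772 CPM against 78.8, 97.9 and 92.1 CPM. ARG3, ornithine carbamoyltransferase, was at 102, 85.8 and 71.8 CPM against 8.84, 12.7 and 7.99 CPM. For both the groups were far apart, with log2 changes of 3.26 ± 0.18 (SE, adjusted p = 5.8e-07) and 3.16 ± 0.22 (SE, adjusted p = 1.9e-06). ARG4, argininosuccinate lyase, was nearly equal in the AMB-LF libraries, at 1958, 1963 and 1984 CPM, and rose by 2.60. The smallest changes were those of ARG8 (0.92) and ARG2 (0.88), of the mitochondrial steps to ornithine.

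Of the 8 lysine genes, 7 were increased (median 1.56, and 8 against the control for AMB, median 1.07). LYS1, which makes lysine in the last step, was at 783, 583 and 687 CPM against 152, 134 and 159.9 CPM (log2 change 2.23 ± 0.13 SE, adjusted p = 9.0e-07), and LYS2 and LYS20 rose by 2.19 and 1.83. LYS5, which activates Lys2 rather than acting in the pathway, was the gene not called (0.18, adjusted p = 0.099). Histidine synthesis had 7 of 7 genes increased (median 1.16) and 6 against the control for AMB (median 0.62), led by HIS4 at 2743, 2842 and 2846 CPM against 574, 540.5 and 737 CPM (log2 change 2.13 ± 0.15 SE, adjusted p = 2.2e-06). HIS6 (0.29, adjusted p = 0.041) and HIS2 (0.25, adjusted p = 0.043) lay close to the threshold, and 5 of the 7 were increased without AMB-LF replicate 1. HIS6 then had 0.27 (adjusted p = 0.24) and HIS2 0.34 (adjusted p = 0.083), and both lost the call without AMB-LF replicate 2 as well (0.28, adjusted p = 0.08 and 0.24, adjusted p = 0.078). HIS6 also lost it without control replicate 2 (0.21, adjusted p = 0.085), and HIS2 without AMB-LF replicate 3 (0.24, adjusted p = 0.076), control replicate 1 (0.22, adjusted p = 0.059) or control replicate 3 (0.23, adjusted p = 0.089). In the aromatic pathway 11 of 14 rose, led by the first enzymes ARO3 (1.95) and ARO4 (1.64), and 11 rose against the control for AMB. TRP1, PHA2 and ARO7 were not called.

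Branched-chain synthesis had 8 of 10 genes increased and 1 decreased, and 7 and 2 against the control for AMB. LEU9, an isopropylmalate synthase, was at 317, 299 and 288 CPM against 57.9, 48.9 and 82.7 CPM (log2 change 2.22 ± 0.17 SE, adjusted p = 4.1e-06), and its paralog LEU4 rose by 1.08. ILV3 rose by 1.73, ILV2 by 1.32 and ILV5 by 1.30. The 2 later leucine steps went another way, with LEU1 at -0.19 (adjusted p = 0.15) and LEU2 decreased, at -0.49 ± 0.08 (SE, adjusted p = 0.00089), and both were decreased against the control for AMB (-0.65 and -0.55). Of the genes for the serine, threonine, proline and glutamate families, 14 of 21 were increased, and 10 against the control for AMB. ASN1, asparagine synthetase, was at 3829, 3213 and 3673 CPM against 591, 539.7 and 850.0 CPM (log2 change 2.43 ± 0.19 SE, adjusted p = 3.5e-06), and HOM3, aspartate kinase, rose by 1.80. SER3 and SER33 are paralogs for the first serine step, of which SER3 was increased (0.97) and SER33 decreased (-0.40, and -0.31, adjusted p = 0.081 without AMB-LF replicate 1).

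TGACTC, the core of the Gcn4 site, was found in 9 of 10 arginine promoters, in 6 of 7 histidine promoters and in 7 of 10 branched-chain promoters, against 7.77% of all promoters. ARG3 was the arginine gene without it. Among the other amino acid lists TGACTC was in 61.9% of promoters for the serine, threonine, proline and glutamate families, 37.5% for lysine and 35.7% for aromatic synthesis. One-carbon (66.7%), purine (50.0%) and NAD synthesis (50.0%) promoters also held it. In those 3 lists 3 of 15, 6 of 20 and 2 of 14 genes were increased. These shares were smaller than in arginine, histidine and branched-chain synthesis, with 10 of 10, 7 of 7 and 8 of 10. Over all called genes TGACTC was in 18.3% of the increased and 5.33% of the decreased. The windows below carry it in capitals, as TGACTC or GAGTCA, on the coding strand at chrXV:218925-218954 (plus) for ARG1 and chrIII:68571-68600 (minus) for HIS4, which holds 3 in all. The search covered both strands, and the end of TGACTC can share a base with the start of CTTATC.
ARG1: tgccgtatggaaGAGTCAtttaaaggcagg
HIS4: aggcagtcgaacTGACTCtaatagTGACTC
GCN4 itself was at 1509.9, 1487 and 1505 CPM in AMB-LF and 816, 746 and 995 CPM in the control, a log2 change of 0.83 ± 0.12 (SE, adjusted p = 0.00052). The control for AMB was higher, at 1341, 1379 and 1289.6 CPM, and against it GCN4 was not called (0.17 ± 0.11 SE, adjusted p = 0.25). PCL5, the cyclin that targets Gcn4 for degradation, rose by 1.59 ± 0.16 (SE, adjusted p = 2.9e-05) and by 1.06 against the control for AMB. Gcn4 is controlled mainly in translation, which RNA-seq does not measure.

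Pathway regulators and transporters of amino acids were increased in part. LYS14 rose by 0.84 ± 0.08 (SE, adjusted p = 2.4e-05), BAS1, the activator of histidine and purine genes, by 1.09 ± 0.14 (SE, adjusted p = 0.00017), LEU3 by 0.39, ARG80 by 0.54 and ARG81 by 0.39. LYS14 was also called against the control for AMB (0.72), and the other 4 were not. ARG80 was at 0.51 (adjusted p = 0.14) and ARG81 at 0.41 (adjusted p = 0.19) without AMB-LF replicate 1, while LEU3 missed the threshold with lane 1 alone (0.33, adjusted p = 0.11). ARG81 also lost its call without AMB-LF replicate 2 (0.38, adjusted p = 0.07) or 3 (0.41, adjusted p = 0.0518) and without control replicate 2 (0.29, adjusted p = 0.084) or 3 (0.41, adjusted p = 0.0549). Of 13 amino acid permeases outside the nitrogen list, 8 were increased and 2 decreased, and 7 and 0 against the control for AMB. DIP5, for acidic amino acids, was at 258, 159 and 154 CPM against 40.6, 39.6 and 38.3 CPM (log2 change 2.37 ± 0.19 SE, adjusted p = 5.1e-06), and the branched-chain permeases BAP2 and BAP3 rose by 1.24 and 1.09. SSY1, the sensor of outside amino acids, was decreased (-0.46), and the factors it activates, STP1 (0.26) and STP2 (0.45), were increased. STP1 was at 0.28 (adjusted p = 0.075) without AMB-LF replicate 1 and STP2 at 0.44 (adjusted p = 0.067) with lane 1 alone. Of the permeases, 5 were increased without AMB-LF replicate 1. RTC2, a transporter of basic amino acids in the vacuolar membrane, was at 195, 161 and 174 CPM against 36.5, 39.6 and 33.6 CPM (log2 change 2.33 ± 0.16 SE, adjusted p = 1.6e-06), and 5 of 15 vacuolar amino acid transporters were increased, 1 of them without AMB-LF replicate 1.

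Sulfur amino acid genes were mostly decreased or not called. Of 23 genes for sulfate assimilation and methionine, 13 were decreased and 1 increased, with a median log2 change of -0.50, beside 15.1% decreased among all genes tested. There were 8 decreased without AMB-LF replicate 1 and 8 against the control for AMB, where the median was -0.17. MET17, which uses sulfide to make homocysteine, was at 269, 287 and 370.4 CPM against 933, 1296 and 711 CPM, and control replicate 2 was the highest. Its log2 change was -1.64 ± 0.24 (SE, adjusted p = 0.00044), but against the control for AMB it was -0.26 ± 0.20 (SE, adjusted p = 0.34). MET14, the APS kinase, had a log2 change of -1.50 ± 0.19 (SE, adjusted p = 0.00015) and stayed decreased against the control for AMB (-0.90). MET16, MET3 and SUL2 also fell against the matched control (-0.85, -0.87 and -0.81) and were not called against the other (-0.17, -0.03 and -0.10). SUL2 was at -0.64 (adjusted p = 0.1) without AMB-LF replicate 1.

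Several genes of methionine and S-adenosylmethionine synthesis were decreased against both untreated groups. MET13 of the one-carbon list, which makes the methyl donor for methionine synthase, was increased against both (0.61 ± 0.11 SE, adjusted p = 0.0019 and 0.66). MET6, methionine synthase, was at 96.0, 116 and 115 CPM in AMB-LF, 311, 291 and 266 CPM in the matched control and 325, 349.8 and 237 CPM in the control for AMB. AMB-LF lay below every untreated library, with log2 changes of -1.38 ± 0.16 (SE, adjusted p = 0.0001) and -1.48 ± 0.14 (SE, adjusted p = 2.0e-05). SAM2, S-adenosylmethionine synthetase, had log2 changes of -1.27 and -0.92, and its paralog SAM1 of -0.45 and -0.99. The call of SAM1 was lost without AMB-LF replicate 1 (-0.26, adjusted p = 0.41) or 2 (-0.46, adjusted p = 0.056) and without control replicate 1 (-0.44, adjusted p = 0.068) or 3 (-0.37, adjusted p = 0.072). MHT1, which recycles S-methylmethionine, was at 11.2, 13.4 and 17.2 CPM against 47.7, 49.0 and 38.3 CPM (log2 change -1.86 ± 0.16 SE, adjusted p = 1.0e-05, and -0.94 against the control for AMB). STR2, which turns cysteine toward homocysteine, was the increased gene of the sulfate and methionine list (1.02 ± 0.09 SE, adjusted p = 7.5e-06, and 0.83 against the control for AMB). CACGTG, bound by Cbf1 and Pho4, was in 34.8% of the promoters of this list against 3.57% of all. MET16 holds it in the window chrXVI:877793-877822 (minus strand).
MET16: ttatcatcatttCACGTGgctagtaaaaga
MET32, which encodes an activator of the pathway, was decreased, at -0.47 ± 0.13 (SE, adjusted p = 0.022), but not without AMB-LF replicate 1 (-0.34, adjusted p = 0.27).

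For genes of translation and ribosome assembly the result depended on the untreated group. Of 22 cytosolic tRNA synthetase genes, 18 were increased (median 0.49), and 1, TYS1 for tyrosine, was increased against the control for AMB (median 0.02). YHR020W, the prolyl-tRNA synthetase, was at 334, 348 and 328 CPM in AMB-LF, 152, 121 and 192 CPM in the matched control and 298, 372 and 312 CPM in the control for AMB. DED81 for asparagine and ILS1 for isoleucine rose by 0.94 ± 0.13 (SE, adjusted p = 0.00035) and 0.90 ± 0.12 (SE, adjusted p = 0.00029) and were at 0.28 and 0.22 against the other group. The increased synthetases were 9 without AMB-LF replicate 1, with lane 1 alone 7, and with the 6 untreated libraries pooled 2.

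Of 155 ribosome biogenesis factors, 12 were increased and 0 decreased, a share below the 14.1% of all genes tested, although 148 had a positive log2 change and the median was 0.35. Against the control for AMB, 150 of the same genes were decreased and 0 increased, with a median of -0.75. The summed CPM was 11029, 11620.0 and 10120.0 in AMB-LF, 8172, 6816 and 9719 in the matched control and 18334, 20121 and 15112 in the control for AMB, so AMB-LF lay between the untreated groups. The count of increased factors depended on single libraries, being 0 without AMB-LF replicate 1, 7 without AMB-LF replicate 2 and 46 without control replicate 3, which had the highest sum of the matched control. It was also 7 without control replicate 1 and 7 without control replicate 2. With the 6 untreated libraries pooled, 0 were increased and 1 was decreased.

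DBP2, an RNA helicase of rRNA processing, was at 126, 128 and 94.7 CPM in AMB-LF, 41.4, 33.3 and 61.3 CPM in the matched control and 228, 230.1 and 143 CPM in the control for AMB. The log2 change was 1.30 ± 0.32 (SE, adjusted p = 0.011) against the first and -0.78 ± 0.27 (SE, adjusted p = 0.0472) against the second, and 1.12 (adjusted p = 0.14) without AMB-LF replicate 1. SNU13, which binds the box C/D small RNAs, and NOP58, a core protein of the same particles, showed the same order. SNU13 was at 176, 185 and 158 CPM in AMB-LF, 93.5, 94.5 and 131 CPM in the matched control and 266, 289 and 237 CPM in the control for AMB (log2 changes 0.69 and -0.61). NOP58 was at 193, 203 and 191, then 112, 89.6 and 151, then 285, 327 and 271 CPM in the same groups (log2 changes 0.65 and -0.59). No group overlapped with another for these genes, and AMB-LF was the middle one. Without AMB-LF replicate 1, SNU13 was at 0.70 (adjusted p = 0.1) and NOP58 at 0.62 (adjusted p = 0.17).

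Promoters of these factors held 2 shared elements, GATGAG (the core of the PAC element) and AAAATTT (the core of RRPE). On either strand, GATGAG was in 87.1% of the 155 promoters against 19.1% of all, and AAAATTT in 92.9% against 24.4%. Both were present in 126 promoters of the list (81.3%) and in 7.53% of all promoters. These shares describe the promoters of the list and use no comparison of the groups, so they are not a result about AMB-LF. The windows show them in capitals for SNU13 at chrV:101738-101767 (plus strand), NOP58 at chrXV:898457-898486 (minus) and DBP2 at chrXIV:413472-413501 (plus), where CTCATC is GATGAG on the other strand and AAAATTTT holds AAAATTT on both strands in overlap.
SNU13: atgctggaatgaGATGAGttagAAAATTTT
NOP58: caacCTCATCgAAAATTTTcagaaaagcaa
DBP2: tttacgccgatgCTCATCgcagAAAATTTT
AAAATTT was also in 86.4% of the tRNA synthetase promoters and 70.3% of those of translation factors. DOT6, a repressor that binds the PAC element, was decreased against both untreated groups (-0.51 ± 0.09 SE, adjusted p = 0.0018 and -0.42), and was at -0.35 (adjusted p = 0.076) without AMB-LF replicate 1.

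RNA polymerase I and III genes had 10 of 37 increased and 2 decreased (0 increased without AMB-LF replicate 1 and 6 without AMB-LF replicate 2), beside 2 and 15 in the comparison with the control for AMB. RRN3, which recruits polymerase I, rose by 0.58 ± 0.11 (SE, adjusted p = 0.0022) and was at 0.03 against the other group, and at 0.46 (adjusted p = 0.064) without AMB-LF replicate 1. Translation factors had 5 of 37 increased (1 and 2 without AMB-LF replicate 1 or 2, 3 without AMB-LF replicate 3 or control replicate 1 or 2, and 19 without control replicate 3) and 15 decreased against the control for AMB. Their share increased against the matched control lay near the 14.1% of all genes tested. Purine synthesis had 6 of 20 increased and 0 decreased against the matched control and 2 increased and 14 decreased against the other. IMD2, an IMP dehydrogenase with close paralogs whose reads may be shared, rose against both (1.07 ± 0.12 SE, adjusted p = 5.2e-05 and 0.68), while GUA1, GMP synthetase, was increased against the matched control (0.72 ± 0.23 SE, adjusted p = 0.036) and decreased against the other (-0.85 ± 0.20 SE, adjusted p = 0.0078). The increase of GUA1 was lost without AMB-LF replicate 1 (0.67, adjusted p = 0.23) or 2 (0.65, adjusted p = 0.076) and without control replicate 1 (0.72, adjusted p = 0.077) or 2 (0.61, adjusted p = 0.084). Pyrimidine synthesis had 3 increased and 2 decreased of 13, against 0 and 9. One-carbon metabolism had 3 and 1 of 15, against 2 and 7. Without AMB-LF replicate 1, 2 purine, 0 pyrimidine and 2 one-carbon genes were increased, and without control replicate 3, 5 one-carbon genes.

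**Figure D3:**
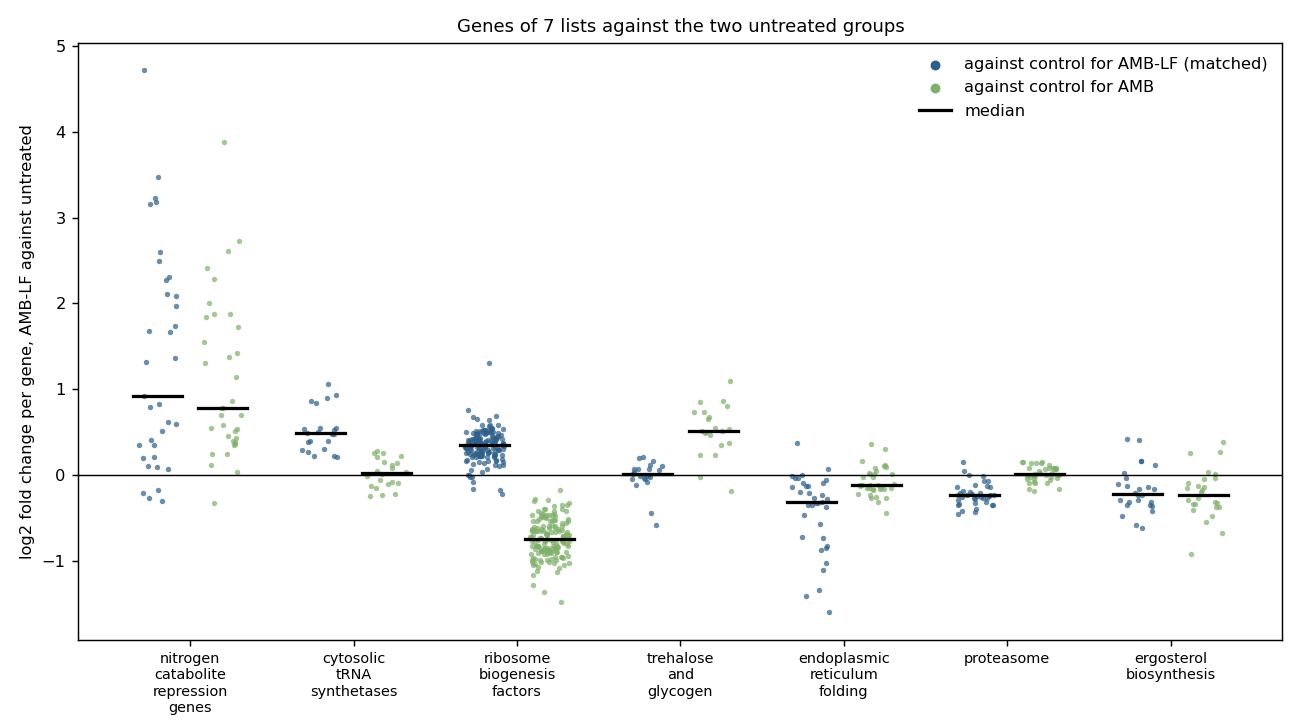
Log2 change of each tested gene in 7 lists, AMB-LF against the matched control (blue) and against the control for AMB (green), with black bars at the medians. Nitrogen catabolite repression genes are high in both comparisons and ergosterol genes low in both, whereas ribosome biogenesis, trehalose and glycogen, endoplasmic reticulum folding and the proteasome shift with the untreated group.

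**Figure D4:**
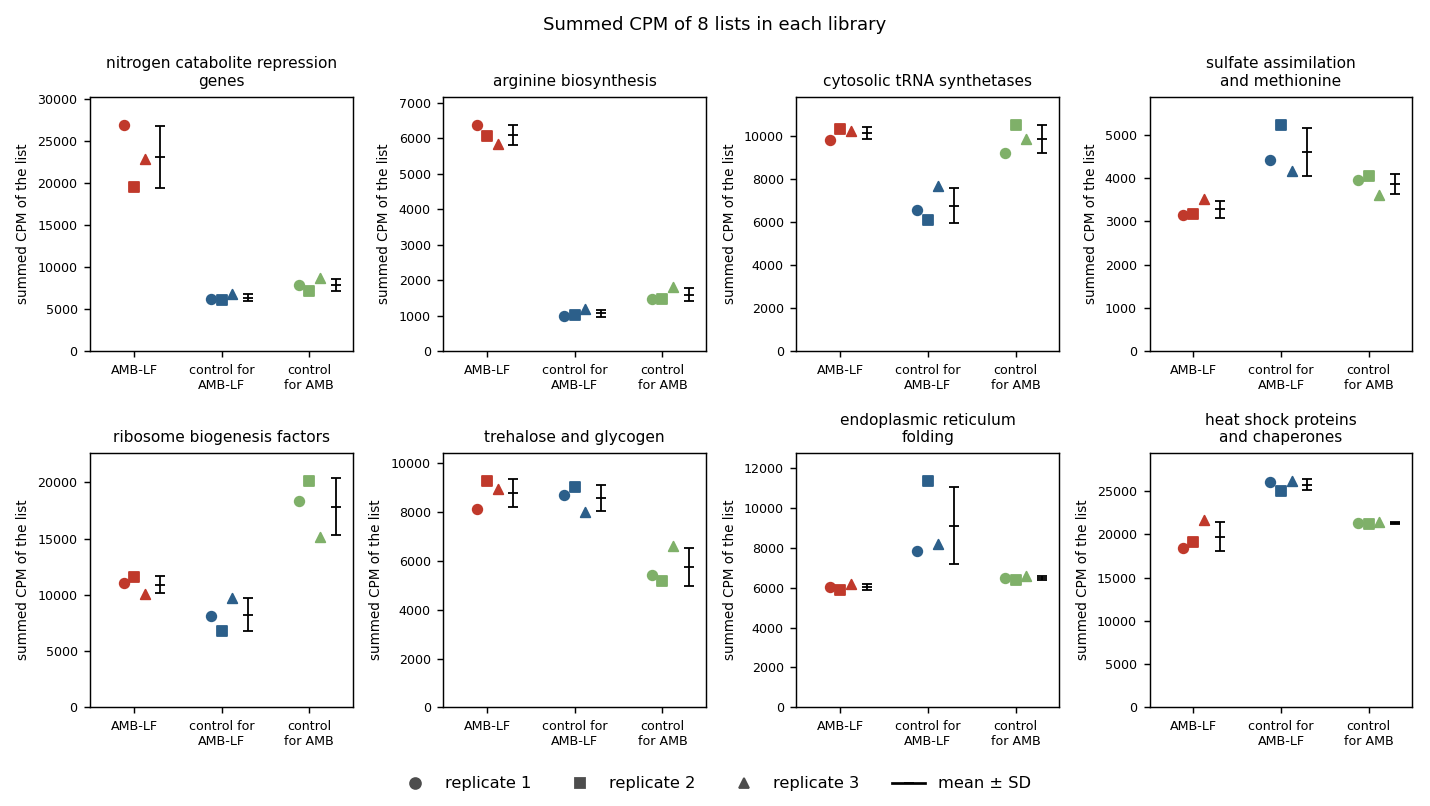
Summed CPM of the genes of 8 lists in each library of AMB-LF, the control for AMB-LF and the control for AMB, each panel on its own axis from 0, with mean ± SD (n = 3) beside the points. AMB-LF stands apart from both untreated groups for nitrogen catabolite repression and arginine synthesis, and lies between them for ribosome biogenesis.

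In central carbon metabolism the largest changes were in single paralogs. Of 28 genes of glycolysis and fermentation, 9 were decreased and 5 increased, with 5 and 1 without AMB-LF replicate 1, and 4 and 5 against the control for AMB. ENO1, the minor enolase, was at 741, 999.5 and 1142 CPM in AMB-LF, 5299, 7323 and 5296 CPM in the matched control and 2571, 2345 and 2701 CPM in the control for AMB. TDH1, a glyceraldehyde-3-phosphate dehydrogenase, was at 693, 748 and 729.9 CPM, then 4471, 5665 and 3513 CPM, then 1674, 1321 and 1499 CPM in the same groups. AMB-LF was below both untreated groups, with log2 changes of -2.65 ± 0.25 (SE, adjusted p = 1.7e-05) and -1.40 ± 0.20 (SE, adjusted p = 0.00042) for ENO1 and of -2.60 ± 0.19 (SE, adjusted p = 2.3e-06) and -1.05 ± 0.16 (SE, adjusted p = 0.00057) for TDH1. The major forms did not pass the test, ENO2 at -0.50 (adjusted p = 0.079) and TDH3 at -0.05 (adjusted p = 0.86), while TDH2 was decreased (-1.74 ± 0.21 SE, adjusted p = 0.00014). These paralogs are near identical, so reads that fit more than one of them may have been lost or moved in the counting. GCR1 and TYE7, activators of glycolytic genes, were decreased against the matched control, with log2 changes of -0.77 ± 0.08 (SE, adjusted p = 3.4e-05) and -0.57 ± 0.09 (SE, adjusted p = 0.00086). With the 6 untreated libraries pooled the changes were smaller, at -0.52 (adjusted p = 0.0098) and -0.40 (adjusted p = 0.021).

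Alcohol dehydrogenases moved in opposite directions. ADH4 was at 82.2, 94.2 and 76.5 CPM in AMB-LF and 1037, 3304 and 1016 CPM in the matched control, where replicate 2 was far above the others, and at 96.3, 104 and 96.8 CPM in the control for AMB. Its log2 change was -4.45 ± 0.47 (SE, adjusted p = 3.9e-05) against the first and -0.23 against the second, which was not called. ADH5 rose against both, from 77.0, 69.6 and 87.7 CPM to 241, 227 and 246 CPM (log2 changes 1.63 and 1.11). ADH1, the main enzyme of ethanol formation, rose by 1.36 ± 0.30 (SE, adjusted p = 0.0064) against the matched control, was at 1.39 (adjusted p = 0.07) without AMB-LF replicate 1 and at -0.12 against the other control. RTC4, VEL1, ZAP1, which encodes the zinc-responsive activator, and ZRT3, the vacuolar zinc exporter, had log2 changes of -3.27, -5.48, -2.22 and -2.14 against the matched control, and of 0.19, 0.74, 0.77 and 0.29 against the control for AMB, none of them called there. ZAP1 was at 34.0, 192 and 54.5 CPM in AMB-LF, and without replicate 1 of AMB-LF its change was -1.13 (adjusted p = 0.41). It also missed the threshold without AMB-LF replicate 3 (-2.02, adjusted p = 0.069), control replicate 1 (-2.23, adjusted p = 0.065) or control replicate 2 (-1.96, adjusted p = 0.064), and ZRT3 without AMB-LF replicate 1 (-1.39, adjusted p = 0.12).

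Of 12 hexose transporters and sensors 4 were decreased and 2 increased, with 2 and 2 without AMB-LF replicate 1, and 4 and 4 against the control for AMB. HXT1, of low affinity, was at 93.8, 97.2 and 91.9 CPM in AMB-LF, 289, 284 and 285 CPM in the matched control and 424, 478 and 343 CPM in the control for AMB. AMB-LF was below every untreated library, with log2 changes of -1.57 ± 0.12 (SE, adjusted p = 3.0e-06) and -2.14 ± 0.10 (SE, adjusted p = 2.8e-07). HXT3, also of low affinity, fell (-0.74 ± 0.12 SE, adjusted p = 0.00086, and -1.18 against the control for AMB), whereas the high-affinity HXT7 rose by 1.00 ± 0.13 (SE, adjusted p = 0.00016) and HXT2 by 0.50. HXT6, HXT9, HXT10 and HXT14 did not pass the filter, and HXT6 and HXT7 are near identical. The glucose repressors MIG2 and MIG3 were decreased against both groups (-0.70 and -0.68 for MIG2, -0.64 and -0.74 for MIG3) but were at -0.54 (adjusted p = 0.14) and -0.72 (adjusted p = 0.066) without AMB-LF replicate 1. NRG2, a repressor of the same kind, was at -1.22 ± 0.26 (SE, adjusted p = 0.0054), at -0.24 against the control for AMB and at -1.10 (adjusted p = 0.089) without AMB-LF replicate 1.

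Other carbon genes changed singly. NQM1, a transaldolase, was at 42.9, 46.0 and 32.7 CPM in AMB-LF, 228, 177 and 122 CPM in the matched control and 212, 159.9 and 119 CPM in the control for AMB (log2 changes -1.99 ± 0.27 SE, adjusted p = 0.00032 and -2.00), and 5 of 13 genes of the pentose phosphate pathway were decreased, 1 without AMB-LF replicate 1 and 5 against the control for AMB. GPP1, glycerol-3-phosphatase, was decreased in both comparisons (-1.08 ± 0.13 SE, adjusted p = 0.00013 and -1.38). ALD5, a mitochondrial aldehyde dehydrogenase, rose from 136, 134 and 186 CPM to 628, 625 and 650.2 CPM (log2 change 2.01 ± 0.13 SE, adjusted p = 1.2e-06, and 1.02 against the control for AMB). Trehalose and glycogen genes had 0 increased and 2 decreased of 21, but 18 increased against the control for AMB, with medians of 0.02 and 0.52, the first of which was negative under 5 of the 18 alternative settings of the processing. GPG1, a gamma subunit linked to the glucose-sensing G protein Gpa2, was at 12.7, 15.5 and 12.2 CPM in AMB-LF, 92.8, 123 and 69.5 CPM in the matched control and 41.9, 38.4 and 34.7 CPM in the control for AMB. It lay below both groups, with a log2 change of -2.82 ± 0.23 (SE, adjusted p = 5.8e-06). Of 25 tricarboxylic acid cycle genes 3 were increased and 4 decreased, with IDH1 of isocitrate dehydrogenase at -0.82, and 6 were increased without control replicate 2. In the other comparison 8 were increased and 3 decreased.

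Of 35 genes for protein folding in the endoplasmic reticulum, 18 were decreased, 16 were not called and 1 was increased against the matched control (median -0.31), and 3 were decreased against the control for AMB (median -0.12). KAR2, the main chaperone of this compartment, was at 544, 562 and 585 CPM in AMB-LF, 1248, 2404 and 1324 CPM in the matched control and 626, 632 and 711 CPM in the control for AMB. Control replicate 2 stood high, and the other 2 matched controls still lay above every AMB-LF library. The log2 change was -1.60 ± 0.24 (SE, adjusted p = 0.0005), -1.23 (adjusted p = 5.2e-06) without control replicate 2 and -0.22 ± 0.20 (SE, adjusted p = 0.43) against the control for AMB. ERO1, which oxidizes the foldases, was at 112, 116 and 117 CPM against 219, 477 and 229 CPM, and PDI1, the main foldase, at 605, 629 and 719.5 CPM against 1122, 1754 and 1216 CPM. Both followed KAR2 in being highest in control replicate 2, with log2 changes of -1.41 ± 0.28 (SE, adjusted p = 0.0032) and -1.11 ± 0.18 (SE, adjusted p = 0.00084), and ERO1 was at -1.31 (adjusted p = 0.062) without AMB-LF replicate 1. The count of decreased genes was 18 without control replicate 2 and 3 without AMB-LF replicate 1. In the latter setting 171 of all 5448 genes tested were decreased, and the median of the list was -0.26.

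ER-associated degradation had 12 of 25 genes decreased (2 without AMB-LF replicate 1) and 2 against the control for AMB, with medians of -0.29 and 0.00. UFD1, a Cdc48 cofactor, was at -0.67 ± 0.07 (SE, adjusted p = 4.6e-05) and was not called against the control for AMB (-0.12 ± 0.06 SE, adjusted p = 0.16). Protein glycosylation had 12 of 33 decreased (2 without AMB-LF replicate 1) and 10 against the control for AMB, with ALG13 at -0.75 ± 0.13 (SE, adjusted p = 0.0016) and at -0.41 against the control for AMB. The proteasome had 14 of 38 decreased and 0 increased (median -0.24), but 0 without AMB-LF replicate 1, 7 without control replicate 1, 8 without AMB-LF replicate 2 and 0 against the control for AMB. Its changes were small, the largest being RPN11, the deubiquitinase of the lid, at -0.45 ± 0.09 (SE, adjusted p = 0.0043), and -0.44 (adjusted p = 0.059) without AMB-LF replicate 1. The vacuolar hydrolase list had 6 decreased and 2 increased of 17 against the matched control (1 decreased without AMB-LF replicate 1). Against the control for AMB it had 0 decreased and 8 increased. The decreased genes included PAI3 (-1.10) and PBI2 (-1.01), which encode inhibitors of vacuolar proteinases A and B rather than hydrolases. Both lost the call without AMB-LF replicate 1 (-0.997, adjusted p = 0.079 and -0.81, adjusted p = 0.056), and neither was called against the control for AMB. Autophagy had 9 decreased and 2 increased of 38, and 1 and 15 against the control for AMB (0 decreased without AMB-LF replicate 1). AMS1, vacuolar mannosidase, was at 105, 109 and 121 CPM in AMB-LF, 221, 259.6 and 192 CPM in the matched control and 118, 104 and 108 CPM in the control for AMB, below the first group and level with the second.

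Chaperones of the cytosol and mitochondria were decreased in 23 of 42 genes and increased in 1 (9 decreased without AMB-LF replicate 1), and 13 were decreased against the control for AMB. HSP26, a small heat shock protein, was at 197, 206 and 179.5 CPM in AMB-LF, 1002, 1033 and 588 CPM in the matched control and 449, 383 and 321 CPM in the control for AMB. AMB-LF was below all 6 untreated libraries, with log2 changes of -2.15 ± 0.23 (SE, adjusted p = 4.8e-05) and -0.98 ± 0.20 (SE, adjusted p = 0.0031). SSA4, an inducible Hsp70, was at 101, 96.8 and 93.1 CPM in AMB-LF, 275, 301 and 229.5 CPM in the matched control and 197, 160.2 and 166 CPM in the control for AMB (log2 changes -1.42 ± 0.12 SE, adjusted p = 7.5e-06 and -0.84). HSP82, the inducible Hsp90, and its cofactor AHA1 also fell against the matched control, with log2 changes of -0.97 ± 0.10 (SE, adjusted p = 3.7e-05) and -0.73 ± 0.11 (SE, adjusted p = 0.00074). The fall of HSP82 was smaller against the control for AMB, at -0.29 ± 0.09 (SE, adjusted p = 0.024). With the 6 untreated libraries pooled HSP82 was not called (-0.56, adjusted p = 0.066). HSP78, the mitochondrial disaggregase, was the increased gene (0.34, and 0.90 against the control for AMB), and lost the call without AMB-LF replicate 1 (0.46, adjusted p = 0.09), 2 (0.33, adjusted p = 0.08) or 3 (0.33, adjusted p = 0.073) or control replicate 3 (0.26, adjusted p = 0.084).

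Antioxidant and redox enzymes had 21 decreased and 5 increased of 43 (9 and 1 without AMB-LF replicate 1), and 9 and 5 against the control for AMB. MXR1, methionine sulfoxide reductase, was at 30.5, 32.6 and 32.4 CPM in AMB-LF, 82.2, 77.5 and 65.2 CPM in the matched control and 56.0, 54.8 and 45.7 CPM in the control for AMB (log2 changes -1.20 ± 0.12 SE, adjusted p = 2.9e-05 and -0.71). AHP1, a thiol peroxidase, had log2 changes of -1.09 ± 0.16 (SE, adjusted p = 0.00039) and -0.63, and the peroxiredoxin TSA2 of -0.86 and -1.02. For MXR1, AHP1 and TSA2 AMB-LF lay below every untreated library. GRX4, a glutaredoxin with a role in iron sensing, was the largest increase of the list, at 121, 109 and 122 CPM against 37.4, 58.4 and 47.3 CPM (log2 change 1.35 ± 0.14 SE, adjusted p = 4.2e-05). CAD1, an activator of the Yap family, fell (-0.60 ± 0.09 SE, adjusted p = 0.00044) and was at -0.10 against the control for AMB, while CIN5, another of the family, rose by 0.96 ± 0.23 (SE, adjusted p = 0.009) and by 1.19, and was at 1.10 (adjusted p = 0.063) without AMB-LF replicate 1.

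Ergosterol, the target of AMB, is made by a pathway of which 12 of 26 genes were decreased and 2 increased. Against the control for AMB 13 were decreased and 3 increased, and the medians were -0.21 and -0.23. Without AMB-LF replicate 1, 1 was decreased and the median was -0.19. The changes were small. ERG5, the C-22 desaturase, was at 152, 151 and 166 CPM in AMB-LF, 247, 207 and 254 CPM in the matched control and 313, 304 and 269.9 CPM in the control for AMB, below both groups (log2 changes -0.59 ± 0.10 SE, adjusted p = 0.0017 and -0.92), and at -0.48 (adjusted p = 0.061) without AMB-LF replicate 1. MVD1 of the mevalonate steps was at -0.48 and -0.55, and -0.37 (adjusted p = 0.1) without that library. ERG27, the keto reductase, was at -0.62 ± 0.10 (SE, adjusted p = 0.00095) and at -0.20 against the control for AMB. Of 10 sterol regulators and uptake genes 2 were increased and 0 decreased, and 3 and 1 against the control for AMB. SUT1, which promotes sterol uptake, was at 39.4, 40.2 and 41.5 CPM against 20.2, 20.6 and 20.5 CPM (log2 change 0.94 ± 0.08 SE, adjusted p = 7.5e-06), and ECM22, an activator of sterol synthesis, rose by 0.47 ± 0.08 (SE, adjusted p = 0.002).

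In the lists of other membrane lipid genes the shares called lay near the 14.1% increased and 15.1% decreased of all genes tested. Nothing is read from those counts, and single genes are given. OPI3, a methyltransferase of phosphatidylcholine synthesis, was at 98.2, 94.6 and 117 CPM in AMB-LF, 271, 432 and 289 CPM in the matched control and 223, 197 and 204 CPM in the control for AMB, below both groups (log2 changes -1.64 ± 0.19 SE, adjusted p = 7.3e-05 and -1.01). CHO2, the methyltransferase of the step before it, rose by 0.53 and by 0.35, and was at 0.48 (adjusted p = 0.061) without AMB-LF replicate 1. Phospholipid and inositol synthesis had 4 increased and 5 decreased of 29, with 0 and 2 without AMB-LF replicate 1, and 8 and 6 against the control for AMB. In fatty acid and sphingolipid synthesis 5 were increased and 4 decreased of 32, with 2 and 1 without AMB-LF replicate 1 and 3 increased without AMB-LF replicate 2 or 3 or control replicate 1. With the control for AMB these were 6 and 7. FAA4, an acyl-CoA synthetase, rose by 1.08 ± 0.11 (SE, adjusted p = 2.9e-05) and OLE1, the fatty acid desaturase, by 0.64 ± 0.11 (SE, adjusted p = 0.0014), both also against the control for AMB (0.80 and 0.52). ORM2, an inhibitor of sphingolipid synthesis, was decreased in both comparisons (-0.89 ± 0.12 SE, adjusted p = 0.00027 and -0.62).

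Phosphate genes were increased in 16 of 29 and decreased in 2, and increased in 10 against the control for AMB. There were 6 increased without AMB-LF replicate 1. PHO11 and PHO12, acid phosphatases so alike that their reads may be shared, rose by 1.25 ± 0.16 (SE, adjusted p = 0.00015) and 1.38 ± 0.19 (SE, adjusted p = 0.00034), and by 0.85 and 0.62 against the control for AMB. PHO84, the high-affinity phosphate transporter, was at 2359, 2002 and 2693 CPM in AMB-LF, 1458, 957 and 1565 CPM in the matched control and 2372, 2365 and 1851 CPM in the control for AMB, above the first group and overlapping the second, and at 0.87 (adjusted p = 0.1) without AMB-LF replicate 1. PHO90, a low-affinity transporter, and PHO91, its counterpart of the vacuole, rose by 0.75 and 0.60, of which PHO91 was also called against the other group (0.39). ENA1, the sodium pump of the plasma membrane, was at 847, 849.9 and 813 CPM in AMB-LF, 298, 279 and 287 CPM in the matched control and 211, 250.3 and 309.8 CPM in the control for AMB (log2 changes 1.48 ± 0.13 SE, adjusted p = 7.5e-06 and 1.71). AMB-LF lay far above every untreated library. RCN1, a regulator and target of calcineurin, was decreased (-0.58 ± 0.12 SE, adjusted p = 0.0058), but not without AMB-LF replicate 1 (-0.64, adjusted p = 0.0508).

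Genes of the multidrug resistance list were increased in 7 of 23 and decreased in 1, beside 14.1% and 15.1% of all genes tested. Against the control for AMB the counts were 10 and 1. The gene decreased against the matched control was ICT1 (-0.91), an acyltransferase and not a transporter. QDR3, a multidrug and polyamine transporter, was at 636, 421 and 497 CPM in AMB-LF, 109.8, 119.7 and 115 CPM in the matched control and 149, 145 and 155 CPM in the control for AMB (log2 changes 2.22 ± 0.14 SE, adjusted p = 1.2e-06 and 1.79 ± 0.13 SE, adjusted p = 3.5e-06). SNQ2, an ABC transporter, was at 1049.7, 1168 and 1162 CPM in AMB-LF, 657, 525 and 701 CPM in the matched control and 578, 568 and 626 CPM in the control for AMB (log2 changes 0.84 ± 0.13 SE, adjusted p = 0.00083 and 0.93). Both lay above every untreated library. TPO1, a polyamine exporter, rose by 0.94 ± 0.17 (SE, adjusted p = 0.0017). In the cell wall list 12 were increased and 7 decreased of 62 (5 and 2 without AMB-LF replicate 1), and 13 and 8 against the control for AMB. Nothing is read from those counts, which stand beside 14.1% increased and 15.1% decreased among all genes tested. GSC2, the inducible glucan synthase, was decreased against both groups (-0.96 ± 0.15 SE, adjusted p = 0.00084 and -1.11), as was YGP1, a secreted glycoprotein of starvation (-1.04 ± 0.13 SE, adjusted p = 0.00017 and -0.86).

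All 4 genes of ribonucleotide reductase were increased, with RNR3, the damage-inducible large subunit, at 1.12 ± 0.16 (SE, adjusted p = 0.00047), RNR1 at 0.83 ± 0.13 (SE, adjusted p = 0.00063), RNR4 at 0.73 ± 0.10 (SE, adjusted p = 0.00029) and RNR2 at 0.59 ± 0.07 (SE, adjusted p = 0.0001). They were increased against the control for AMB as well (1.20, 0.58, 0.40 and 0.28). Among cell cycle genes, the G1 cyclins CLN1 (-0.55 ± 0.09 SE, adjusted p = 0.00074) and CLN2 (-0.47 ± 0.13 SE, adjusted p = 0.017) fell, the latter not without AMB-LF replicate 1 (-0.43, adjusted p = 0.16) or control replicate 1 (-0.35, adjusted p = 0.078). Histone genes had 3 of 10 decreased and 0 increased, and 0 decreased without AMB-LF replicate 1 and 5 against the control for AMB. HTA1, a core histone, was at -0.52 ± 0.11 (SE, adjusted p = 0.0047), and at -0.41 (adjusted p = 0.11) without AMB-LF replicate 1. VHT1, the biotin transporter, rose by 0.85 ± 0.10 (SE, adjusted p = 0.00011) and BNA1, of NAD synthesis, by 0.84 ± 0.10 (SE, adjusted p = 7.8e-05). Mitochondrial ribosomal proteins had 20 of 76 decreased and 1 increased, all by under 1 on the log2 scale, with a median of -0.16. There were 7 decreased and 3 increased against the control for AMB (median -0.04). The decreased genes against the matched control were 0 without AMB-LF replicate 1, 13 without AMB-LF replicate 2 and 9 without control replicate 1.

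The remaining lists are given by their counts of genes increased and decreased. Many of their shares lie near the 14.1% increased and 15.1% decreased among all genes tested, and nothing is read from those. Gluconeogenesis had 5 and 4 of 20, glycerol synthesis and osmotic response 1 and 4 of 14, the respiratory chain 4 and 2 of 43, and the vacuolar proton pump 4 and 2 of 20. Potassium, sodium and proton transport had 1 and 1 of 18, calcium and calcineurin 3 and 2 of 19, and Ras and protein kinase A 5 and 2 of 20. Cyclins and cell cycle regulators had 2 and 7 of 31, DNA replication 7 and 3 of 39, and the pheromone response 3 and 2 of 27. Thiamine, pyridoxine and biotin genes had 6 and 3 of 23, NAD synthesis 2 and 2 of 14, polyamines 4 and 2 of 13, and peroxisome and fatty acid oxidation 5 and 3 of 30. Transcriptional regulators of all kinds had 21 and 8 of 88. In the comparison with the control for AMB the counts were 7 and 0 for gluconeogenesis, 3 and 2 for glycerol, 6 and 2 for the respiratory chain, 3 and 1 for the proton pump, 3 and 5 for ion transport, 5 and 2 for calcium and 7 and 2 for protein kinase A. They were 5 and 6 for cyclins, 5 and 6 for DNA replication, 3 and 11 for the pheromone response, 6 and 2 for vitamins, 4 and 3 for NAD synthesis, 4 and 3 for polyamines, 7 and 1 for peroxisomes and 27 and 10 for regulators. The pheromone response thus had 11 genes decreased there beside 2 against the matched control. MSN4, a general stress activator of the protein kinase A list, rose by 0.65 ± 0.11 (SE, adjusted p = 0.001) and by 0.59 against the control for AMB.

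Without AMB-LF replicate 1 most of these counts were smaller, as were those over all genes tested (299 increased and 171 decreased of 5448). They were then 2 and 0 for gluconeogenesis, 0 and 1 for glycerol, 1 and 0 for the respiratory chain, 0 and 0 for the proton pump, 1 and 0 for calcium, 1 and 0 for protein kinase A and 1 and 1 for cyclins. The counts were 5 and 1 for DNA replication, 1 and 0 for the pheromone response, 2 and 1 for vitamins, 1 and 0 for peroxisomes and 15 and 3 for regulators. Other libraries mattered for a few. The increased genes of the respiratory chain were 10 without control replicate 2, 1 without control replicate 1, and 2 without AMB-LF replicate 2 or 3 or control replicate 3. Those of the proton pump were 1 without AMB-LF replicate 3, and those of protein kinase A 2 without AMB-LF replicate 2 or control replicate 2. The decreased cyclins were 3 without control replicate 1, and the decreased DNA replication genes 1 without control replicate 1 and 6 without control replicate 2. The decreased vitamin genes were 1 without control replicate 2, and the decreased peroxisome genes 1 without control replicate 1 or 2.

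Of the 190 genes selected by rule, 85 were called under every one of the 18 alternative settings of the processing in which they were tested. FUS2, 1 of these, was tested in 14 of them. MEP2, GAP1, ARG1, LYS1, HIS4, ALD5, QDR3, RTC2, GAT1 and UGA3 among the increased, and ENO1, TDH1, HXT1, SSA4, OPI3, MHT1 and GPG1 among the decreased, were of these 85. With lane 1 alone 71 of the 190 lost the call, without AMB-LF replicate 1 78, and with the 6 untreated libraries pooled 63.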

How the data were processed

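RNA-seq counts of 18 libraries were deposited, and 6 were compared here. The deposited values are whole-number read counts per coding sequence. For the 12 HiSeq libraries the authors made them from paired reads of unstranded poly-A libraries, which were trimmed, mapped to the R64 genome and counted with HTSeq 0.5.3p9 without strand, leaving out reads on overlapping genes. The LF libraries and their controls came from stranded NextSeq single reads and were not used. Reads of overlapping or near-identical genes may therefore be lost or moved. The authors' own tables of group means and fold changes were not used.

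Counts of the 12 HiSeq libraries were fitted in edgeR 4.0.16 under R 4.3.3. TMM scaling and terms for group and lane were used in edgeR's quasi-likelihood test, after keeping 5456 genes of at least 7 CPM in at least 6 libraries. P-values were adjusted by Benjamini-Hochberg over all genes tested. SE was taken as the log2 change over the root of F. The 6 libraries held 7279362 to 9696467 counts, and the common biological coefficient of variation was 0.0978. Replicates are the labels' biological replicates.

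The rule for named genes took the 12 called genes with the largest rise and the 12 with the largest fall whose groups do not overlap, up to 3 called genes of each of 54 lists by size of change, and called regulators. These were 190 genes, of which a few are not reported here. Other list members named in the report were chosen after their values were seen, to complete a pathway step. The comparison, lists and tests were chosen with earlier results of these data known, so no list is independent evidence. Symbols came from the RefSeq annotation of R64, which matched 6008 of 6692 IDs and 5407 of those tested. Promoters were the 300 bases before the start codon, read from the RefSeq genome for 6001 genes.

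Same-numbered replicates of the 2 groups did not deviate together (Pearson r of their deviations across genes -0.331, -0.11 and 0.0408), so numbers were not taken to pair libraries. Alternatives were other scalings, DESeq2 1.42.0, the likelihood ratio test, other filters, no lane term, a replicate block, fewer libraries, pooled untreated libraries and each library left out.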

Additional observations from a re-analysis of the deposited data

How the results depend on the processing

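Against the matched control, 770 genes were increased and 825 decreased, an increased share of 48.3%. Scaling to library size alone gave 1294 decreased and a share of 30.2%, and moved the median of all genes to -0.1 on the log2 scale. The 6 libraries fitted alone with lane gave 320 increased and 216 decreased (59.7%), while lane 1 alone gave 297 and 190 (61.0%) and pooling the 6 untreated libraries 411 decreased. With 1 library left out in turn, increased genes ranged from 299 to 823, decreased genes from 171 to 783 and the share from 48.6% to 63.6%, the lowest counts being those without AMB-LF replicate 1. Against the control for AMB, leaving out 1 library, an alternative chosen after seeing the data, gave 543 to 833 increased and 485 to 855 decreased. The replicate block, for numbers that do not pair the libraries, left 541 increased and 476 decreased genes, and 31 of the 190 named genes lost their call.

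Of 3410 values of the named genes under 18 alternatives, 3027 kept direction and call, 375 kept direction and lost the call and 8 reversed. These 8 arose with the untreated libraries pooled, where the log2 change was -0.35 for GUA1, -0.12 for FUI1, -0.17 for DBP2, -0.18 for SNU13, -0.18 for NOP58, -0.0145 for RPC17, -0.11 for RPC40 and -0.055 for TIF5. None of the 8 was called in that setting, with adjusted p from 0.607 for GUA1 to 0.985 for RPC17 in the quasi-likelihood test. The cause was not tested. The median of 32 of 54 lists kept its sign throughout, and library-size scaling turned 9 that were near 0. AMB-LF replicate 1 was the only treated library in the lane of its controls, so with it left out the lane effect rests on the other groups.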
